A study of Mus musculus with 33 samples.

Results

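The genes described here are 10 members of the Bcl2 family, taken by their symbols from the 55376 gene symbols that were counted in each library: *Bcl2*, *Bcl2l1* and *Mcl1*, which keep cells alive, *Bax* and *Bak1*, which open the mitochondrial outer membrane, and the BH3-only genes *Bid*, *Bcl2l11* (Bim), *Bad*, *Bbc3* (Puma) and *Pmaip1* (Noxa). All 10 symbols were present. They were measured by total RNA sequencing of 3 sorted populations, namely hematopoietic stem cells (HSCs), the common progenitors of lymphoid cells (CLPs) and the progenitors of granulocytes and monocytes (GMPs), taken from the bone marrow of old male C57BL/6 mice, 24 to 29 months of age. The mice were either untreated (O-WT) or given nicotinamide riboside (NR), a form of vitamin B3 from which cells make NAD+, in the drinking water for 4 to 6 weeks (O-NR). Another group of mice was taken 2 months after NR had been withdrawn (NR-RC). Cohort 2 held 4 O-WT and 4 O-NR libraries of each of the 3 cell types (24 libraries), and cohort 1 held HSCs alone, with 2 O-WT, 4 O-NR and 3 NR-RC libraries. HSCs were gated as lineage-negative cells with cKit, Sca1 and CD150 and without CD34 and Flk2. No young mice were in these libraries, and all groups share the old age, the strain and the sex. The labels do not say that each library came from 1 mouse, so the p-values measure the spread between these libraries, part of which may be technical. One label field calls the myeloid progenitors common myeloid progenitors, while their titles call them GMPs, the name used here.

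Cells of the blood live or die by the balance between these proteins at the mitochondrion. Bcl2, Bcl-xL (the product of *Bcl2l1*) and Mcl1 bind and hold back Bax and Bak, and BH3-only proteins free or activate Bax and Bak, after which cytochrome c leaves the mitochondrion and caspases are switched on through Apaf1. Mcl1 is required for the survival of HSCs, Bcl2 is a survival gene of lymphoid cells downstream of interleukin 7, and Bim removes lymphoid cells whose survival signals fail.

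The upstream sequence is shown for 2 genes whose RNA differed between the cell types in both treatments, *Bid* (higher in GMPs) and *Bcl2l11* (higher in CLPs). Both stretches end at the base before the annotated start, lie outside the annotated exons, and are printed 5′ to 3′ on the strand of the gene (RefSeq, GRCm38.p6).
Bid: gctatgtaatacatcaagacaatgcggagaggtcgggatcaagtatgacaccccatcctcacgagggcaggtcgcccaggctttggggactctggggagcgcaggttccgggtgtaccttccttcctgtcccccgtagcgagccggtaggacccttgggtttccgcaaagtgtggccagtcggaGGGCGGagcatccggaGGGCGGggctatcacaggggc
Bcl2l11: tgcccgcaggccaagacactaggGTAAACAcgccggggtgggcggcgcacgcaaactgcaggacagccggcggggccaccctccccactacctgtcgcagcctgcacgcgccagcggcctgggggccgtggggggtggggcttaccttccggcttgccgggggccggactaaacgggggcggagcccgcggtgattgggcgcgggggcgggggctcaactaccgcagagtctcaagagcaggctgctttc
The *Bid* stretch is chr6:120916854-120917074 (minus strand, 221 bases), and its capitals mark GGGCGG, the core of a GC box, searched on both strands and found at 2 places. GGGCGG was present in 28.7% of 32851 RefSeq promoter stretches of that length, and the *Bid* stretch had a GC content of 62.4% against a median of 52% for all. The *Bcl2l11* stretch is chr2:128125788-128126037 (plus strand, 250 bases), and its capitals mark the only match to TGTTTAC, a forkhead motif, which lies on the opposite strand and so reads GTAAACA here. TGTTTAC was present in 3.17% of stretches of that length. Over all 15 stretches of the 9 members that had one, taken at 250 bases, TGTTTAC was found in 2, 1 of *Bcl2l11* and 1 of *Bbc3*, and GGGCGG in 10. GGGCGG was present in 32.7% of all stretches of 250 bases. The *Bcl2l11* stretch also holds GGGCGG, at 3 places that are not marked. Other motifs were searched as well, and 1 was chosen to be marked in each stretch. These matches describe letters only, and no binding was measured.

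The libraries of cohort 2 held 4792380 to 18213674 counted reads and those of cohort 1 held 8897256 to 23816042. Levels are counts relative to the library total, in the usual CPM unit, after TMM scaling. The marker genes of each sorted population were highest in that population. In cohort 2, 8 HSC markers summed to 1674 to 2384 CPM in HSCs and to at most 144 in CLPs and GMPs. The 8 CLP markers summed to 1805 to 4378 CPM in CLPs and to at most 119 in HSCs and GMPs. The 8 GMP markers summed to 16819 to 25210 CPM in GMPs, 257 to 544 in CLPs and 94 to 138 in HSCs. Mature neutrophil markers summed to 16.6 to 173 CPM in CLPs, 11.4 to 23.8 in HSCs and 19.6 to 45.9 in GMPs. The part of such reads in the levels below was not tested. Reads on olfactory and vomeronasal receptor genes, which blood cells do not express, gave a background of 0.205 to 0.873 CPM per kb of exon in cohort 2 O-WT libraries, and the highest of these was CLP O-WT replicate 3, which also had the lowest CLP marker sum (1805 CPM) and the lowest *Bak1*, *Bid*, *Bcl2*, *Mcl1*, *Bcl2l1* and *Bax* of its group. In bulk samples, fewer cells of a type and less RNA per cell cannot be told apart.

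*Mcl1* was the most abundant of the genes per length of transcript in HSCs and CLPs, and *Pmaip1* or *Bbc3* was the least abundant (levels in this paragraph are CPM per kb of exon). In O-WT HSCs the level of *Mcl1* was 43.8 ± 7.99 (SD, n = 4), well apart from *Bak1* at 11.2 ± 1.3 and *Bcl2* at 9.3 ± 1.43, whose libraries overlapped each other. *Bad* (6.16), *Bcl2l1* (5.09), *Bax* (4.82) and *Bid* (4.37) followed, and then came *Bbc3* (2.97) and *Bcl2l11* (2.08), each of these overlapping the next. *Pmaip1* was lowest at 0.704 ± 0.248, which rested on 12 to 29 reads per library and was near the receptor background of the same libraries (0.272 to 0.672). In O-WT CLPs *Mcl1* (29.4 ± 9.48) was again first, followed by *Bak1* (13.2 ± 3.8) and *Bcl2* (12.2 ± 3.96), which overlapped. Then came *Bid* (6.25), *Bax* (4.38), *Bcl2l11* (3.83), *Bad* (3.61), *Bcl2l1* (2.94), *Pmaip1* (1.79) and *Bbc3* (1.47), each overlapping the next. In O-WT GMPs *Mcl1* (38 ± 6.33) and *Bak1* (34.3 ± 8.86) overlapped at the top, and *Bid* (15.1 ± 2.73), *Bcl2* (10.6 ± 1.87), *Bad* (7.99) and *Bax* (7.85) came next, each overlapping the one after it. *Bcl2l1* (2.93), *Pmaip1* (2.21), *Bcl2l11* (2.19) and *Bbc3* (1.47) were lowest, of which *Bcl2l1* lay apart from *Pmaip1*. In O-NR GMPs the mean of *Bak1* (34.9 ± 5.2) stood above that of *Mcl1* (33.4 ± 1.4), again with overlapping libraries. The plot of levels per exon length shows this order.

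**Figure D1:**
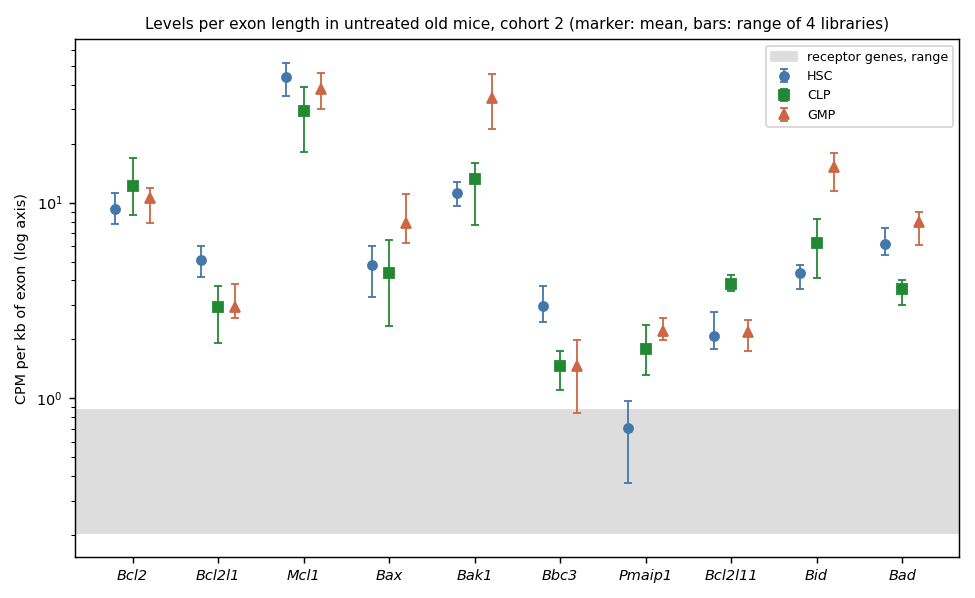
CPM per kb of exon (log axis) of each gene in HSCs, CLPs and GMPs of O-WT mice of cohort 2, with markers at the mean and bars over the range of 4 libraries. *Mcl1* lies highest in all 3 cell types, *Bak1* comes up to it in GMPs, and the mean of *Pmaip1* in HSCs (0.704) lies within the grey band of receptor background, 0.205 to 0.873, with a range that reaches 0.971.

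Differences between cell types were tested by the quasi-likelihood method of edgeR, fitted over the 12 O-WT libraries and, separately, over the 12 O-NR libraries. A gene is called changed below a Benjamini-Hochberg adjusted p of 0.05 over all genes tested. *Pmaip1* was above 3 CPM in few HSC libraries and *Bbc3* in few GMP libraries, so they entered these fits mainly through the other cell types. They are left out of the counts that follow, which cover the other 8 genes. In O-WT, 5 of the 8 differed between CLPs and HSCs (2 higher in CLPs, 3 lower), where 30.3% of all genes did (9.57% higher, 20.7% lower). Between GMPs and HSCs 4 differed (3 higher in GMPs, 1 lower), where 46.8% of all genes did (21% higher, 25.7% lower), and between GMPs and CLPs 5 differed (4 higher in GMPs, 1 lower), where 62.1% did (27.2% higher, 34.9% lower). In O-NR 5 differed between CLPs and HSCs (3 higher, 2 lower), where 40.8% of all genes did (19.8% higher, 20.9% lower). Between GMPs and HSCs of O-NR 2 differed (both higher), where 45.8% of all genes did (25% higher, 20.8% lower), and between GMPs and CLPs 5 differed (3 higher, 2 lower), where 49.3% did (25.5% higher, 23.8% lower). With 8 genes these shares are a description. The median log2 difference of the 8 genes was 0.10, 0.25 and 0.53 in the 3 O-WT comparisons, against 0.04, −0.40 and −0.32 over all genes tested, and 0.08, 0.14 and 0.35 in O-NR, against 0.11, −0.08 and −0.14. Of their 24 differences, 10 passed in both treatments, 4 in O-WT alone, 2 in O-NR alone and 8 in neither, which is no test of a difference between the treatments. Libraries of the 2 groups did not overlap for 3, 4 and 4 of the 8 genes in O-WT, where 29.2%, 41.3% and 45.4% of all genes did not, and for 3, 2 and 4 in O-NR, where 34.7%, 47.6% and 41.5% did not.

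**Figure D2:**
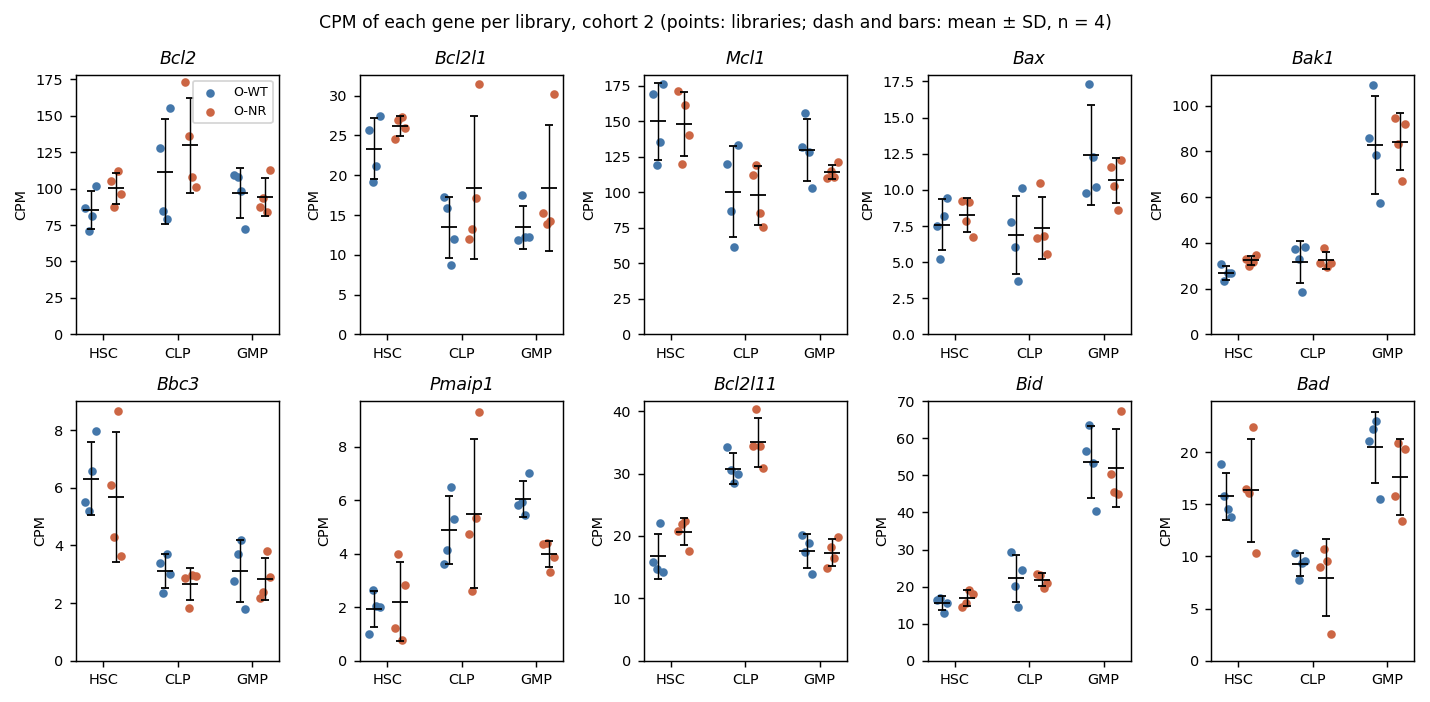
CPM of each gene in every library of cohort 2, O-WT beside O-NR in each of 3 cell types, with points for libraries and a dash and bars for the mean ± SD of 4. *Bak1* and *Bid* are higher in every GMP library than in any other, *Bcl2l11* is highest in CLPs, and O-WT and O-NR points overlap nearly throughout.

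*Bak1* (chromosome 17, 27019810 to 27029009, minus strand, mm10), which encodes one of the pore-forming effectors, was higher in GMPs than in both other populations. Its O-WT libraries read 30.8, 23.2, 27 and 26.9 CPM in HSCs, 37.5, 33, 18.5 and 38.3 in CLPs and 85.9, 109, 78.2 and 57.4 in GMPs. In O-NR they read 33, 29.9, 31.7 and 34.8 CPM in HSCs, 31.2, 37.8, 29.6 and 31.2 in CLPs and 94.5, 83, 66.9 and 92 in GMPs. Every GMP library thus lay above every HSC and CLP library, while HSCs and CLPs overlapped. The log2 difference between GMPs and HSCs was 1.58 ± 0.19 (SE) in O-WT (2.99-fold, adjusted p = 2.05e-08) and 1.51 ± 0.14 in O-NR (2.85-fold, adjusted p = 2.88e-10). Against CLPs it was 1.30 ± 0.19 in O-WT (adjusted p = 1.45e-06) and 1.35 ± 0.14 in O-NR (adjusted p = 7.74e-09). Of the exon bases of *Bak1*, 25.5% are also exon of *Ggnbp1* on the other strand, and the strand setting of the counting is not stated. *Ggnbp1* went the other way, with 19.8 CPM in O-WT HSCs and 7.96 in O-WT GMPs.

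*Bax* (chromosome 7, 45461697 to 45466898, minus strand), the second effector, was much lower than *Bak1* in reads and differed less between the cell types. Its O-WT libraries read 7.51, 5.2, 8.22 and 9.42 CPM in HSCs, 7.78, 6.03, 3.71 and 10.1 in CLPs and 9.78, 17.3, 12.3 and 10.2 in GMPs. In O-NR its ranges were 6.76 to 9.22 CPM in HSCs, 5.59 to 10.5 in CLPs and 8.6 to 12.1 in GMPs. GMPs were highest by mean in both treatments, with O-WT GMPs just above O-WT HSCs in every library. The difference from HSCs was 0.67 ± 0.27 on the log2 scale in O-WT (adjusted p = 0.0439) and 0.50 ± 0.24 in O-NR (adjusted p = 0.0895), and that from CLPs was 0.76 ± 0.27 (adjusted p = 0.0198) and 0.50 ± 0.24 (adjusted p = 0.0817). The O-WT calls were lost under upper quartile scaling (adjusted p = 0.131 against HSCs, 0.247 against CLPs). They were also lost with libraries scaled by their total alone (adjusted p = 0.219 and 0.311). The call against HSCs was lost without HSC replicate 2 or 3 or GMP replicate 2 or 3 (adjusted p = 0.0618 to 0.2). The call against CLPs was lost without CLP replicate 2 or 3 or GMP replicate 2 (adjusted p = 0.0538 to 0.107). The O-NR difference from CLPs passed with a CPM filter of 1 (0.70, adjusted p = 0.0308) and without CLP replicate 2 (0.71, adjusted p = 0.0182). CLPs differed from HSCs by −0.09 ± 0.28 in O-WT. Of the exon bases of *Bax*, 12.2% are also exon of *Gm45808* on the same strand, which read 0 CPM in all groups. How reads of these shared bases were counted is not stated, and their part in the level of *Bax* was not tested.

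*Bid* (chromosome 6, 120891930 to 120916853, minus strand), whose product is cut by caspase 8 and carries a death receptor signal to the mitochondrion, rose from HSCs over CLPs to GMPs. In O-WT the libraries read 16.5, 17, 12.9 and 15.7 CPM in HSCs, 29.4, 20.3, 14.6 and 24.5 in CLPs and 56.7, 63.6, 53.3 and 40.5 in GMPs. In O-NR they read 14.5, 15.7, 19.2 and 18 CPM in HSCs, 23.4, 23.1, 19.7 and 21 in CLPs and 50.3, 45.4, 45 and 67.4 in GMPs. GMPs lay above all other libraries in both treatments, and CLPs lay above HSCs in every library of O-NR but not of O-WT. GMPs exceeded HSCs by 1.75 ± 0.18 in log2 in O-WT (3.36-fold, adjusted p = 1.25e-09) and by 1.76 ± 0.16 in O-NR (3.39-fold, adjusted p = 2.81e-10). GMPs exceeded CLPs by 1.19 ± 0.18 (adjusted p = 2.76e-06) and 1.23 ± 0.16 (adjusted p = 4.36e-07). CLPs exceeded HSCs by 0.56 ± 0.18 (adjusted p = 0.0185) and 0.53 ± 0.16 (adjusted p = 0.011). The O-WT call was lost without HSC replicate 3 (adjusted p = 0.0733) or CLP replicate 1 (adjusted p = 0.105). Both calls were lost with a CPM filter of 1 (adjusted p = 0.332 and 0.181) or none (adjusted p = 0.293 and 0.352). Of the exon bases of *Bid*, 17.7% are also exon of *Bcl2l13* on the other strand, whose level rose alike, from 36.5 CPM in O-WT HSCs to 82.7 in O-WT GMPs, and reads of the shared bases cannot be told apart where counting ignores strand.

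*Bcl2l11* (chromosome 2, 128126038 to 128162547, plus strand), which encodes Bim, was highest in CLPs. In O-WT it read 15.8, 14.7, 22.1 and 14.3 CPM in HSCs, 34.2, 30.5, 28.5 and 30 in CLPs and 20.1, 17.5, 18.8 and 13.9 in GMPs. In O-NR it read 20.8, 21.9, 22.4 and 17.6 CPM in HSCs, 34.4, 40.3, 34.5 and 30.9 in CLPs and 14.8, 18.2, 16.5 and 19.9 in GMPs. No CLP library overlapped an HSC or GMP library in either treatment, while HSCs and GMPs overlapped. CLPs exceeded HSCs by 0.93 ± 0.18 in log2 in O-WT (1.9-fold, adjusted p = 9.60e-05) and by 0.92 ± 0.16 in O-NR (1.89-fold, adjusted p = 2.23e-05). The difference of GMPs from CLPs was −0.89 ± 0.18 (adjusted p = 1.42e-04) and −1.03 ± 0.16 (adjusted p = 5.77e-06), and that of GMPs from HSCs was 0.04 ± 0.18 and −0.12 ± 0.16. Without a filter on low counts the O-WT difference of GMPs from CLPs was −0.52 (adjusted p = 0.152). *Foxo1*, a forkhead factor known to act on *Bcl2l11* and 1 of 18 listed regulators, averaged 41.8 CPM in O-WT HSCs, 65.2 in CLPs and 9.38 in GMPs. Its part in the level of *Bcl2l11* was not tested.

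*Bad* (chromosome 19, 6941861 to 6951899, plus strand), whose product binds the survival proteins when growth factor signalling ceases, was lowest in CLPs. Its O-WT libraries read 18.9, 15.8, 14.5 and 13.8 CPM in HSCs, 10.3, 7.71, 9.4 and 9.52 in CLPs and 21.1, 22.2, 23 and 15.5 in GMPs. In O-NR they read 16.5, 16.1, 22.4 and 10.3 CPM in HSCs, 9.03, 10.7, 9.55 and 2.53 in CLPs and 15.8, 20.9, 13.4 and 20.3 in GMPs. All CLP libraries lay below all GMP libraries in both treatments, and below all HSC libraries in O-WT. The difference of CLPs from HSCs was −0.72 ± 0.20 in log2 in O-WT (adjusted p = 0.00495) and −0.89 ± 0.29 in O-NR (adjusted p = 0.0133). The O-NR call was lost without HSC replicate 3 (adjusted p = 0.0955), and the O-WT call with libraries scaled by their total alone (adjusted p = 0.052). GMPs exceeded CLPs by 1.06 ± 0.20 (adjusted p = 5.77e-05) and 1.12 ± 0.28 (adjusted p = 0.00221), and GMPs and HSCs differed by 0.34 ± 0.19 and 0.23 ± 0.27, of which the first passed under RLE scaling (0.59, adjusted p = 0.0258), in DESeq2 (0.59, adjusted p = 0.016) and without HSC replicate 1 (0.51, adjusted p = 0.0305). Exons of *Gpr137* on the other strand cover 20.5% of those of *Bad*, and *Gpr137* was also lowest in CLPs (14.3 CPM in O-WT HSCs, 7.84 in CLPs, 14 in GMPs), so part of the *Bad* reads cannot be told apart from it where counting ignores strand.

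Among the survival genes, *Mcl1* (chromosome 3, 95658788 to 95663176, plus strand) was lower in CLPs than in HSCs. Its O-WT libraries read 169, 119, 135 and 176 CPM in HSCs, 120, 87, 61.8 and 133 in CLPs and 132, 156, 128 and 103 in GMPs. In O-NR they read 171, 120, 161 and 140 CPM in HSCs, 112, 119, 85.2 and 75.8 in CLPs and 110, 115, 111 and 121 in GMPs. CLPs overlapped HSCs in O-WT and lay just below them in O-NR, where the highest CLP library had 119 CPM and the lowest HSC library 120. The difference was −0.53 ± 0.19 in log2 in O-WT (adjusted p = 0.0352) and −0.45 ± 0.16 in O-NR (adjusted p = 0.0217). The O-WT call was lost under upper quartile (adjusted p = 0.081) and RLE scaling (0.163), with a CPM filter of 1 (0.101) or none (0.289), in DESeq2 (0.145), and without HSC replicate 1 or 4 or CLP replicate 2 or 3 (adjusted p = 0.119 to 0.301), and the O-NR call without HSC replicate 1 or 3 (adjusted p = 0.095 and 0.073). GMPs differed from HSCs by −0.24 ± 0.19 and −0.24 ± 0.15 and from CLPs by 0.29 ± 0.19 and 0.21 ± 0.16, none past the threshold. The difference from HSCs did pass in both treatments with libraries scaled by their total alone (−0.54 in both, adjusted p = 1.72e-04 in O-WT and 4.72e-04 in O-NR) or by the upper quartile (adjusted p = 0.00951 and 7.20e-04). In O-NR it also passed in a fit over all 24 libraries (adjusted p = 0.0439) and without HSC replicate 2 (adjusted p = 0.0382).

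*Bcl2* (chromosome 1, 106538178 to 106714274, minus strand) had its highest means in CLPs. In O-WT it read 86.4, 70.8, 81.1 and 102 CPM in HSCs, 128, 84.7, 78.9 and 155 in CLPs and 109, 108, 98.2 and 72.2 in GMPs. In O-NR it read 105, 87.2, 112 and 96.4 CPM in HSCs, 173, 136, 108 and 101 in CLPs and 87, 93.5, 83.6 and 113 in GMPs. The ranges of all 3 cell types overlapped in both treatments. CLPs exceeded HSCs by 0.52 ± 0.16 in log2 in O-NR (adjusted p = 0.0103) and GMPs differed from CLPs by −0.48 ± 0.16 (adjusted p = 0.0162). In O-WT the values were 0.43 ± 0.19 (adjusted p = 0.0849) and −0.28 ± 0.19 (adjusted p = 0.187). Both O-NR calls were lost without CLP replicate 1 (adjusted p = 0.0822 and 0.112). They were also lost with a CPM filter of 1 (adjusted p = 0.186 and 0.257) or none (adjusted p = 0.329 and 0.347). The O-WT difference from HSCs passed without CLP replicate 2 (adjusted p = 0.0498) or 3 (0.0151), under upper quartile scaling (0.66, adjusted p = 7.67e-04) and in a fit over all 24 libraries (0.44, adjusted p = 0.0479). The O-WT difference of GMPs from CLPs passed under upper quartile scaling (−0.70, adjusted p = 4.25e-04) and with the total alone (−0.76, adjusted p = 5.39e-05). Markers of B and plasma cells, which express *Bcl2*, summed to 375 to 760 CPM in O-WT CLPs and to 66.4 to 732 in O-WT HSCs. The part of such cells in the *Bcl2* values was not tested. Exons of *D630008O14Rik* on the other strand cover 6.09% of those of *Bcl2*, and it averaged 1.36 CPM in O-WT HSCs, 1.93 in CLPs and 0.985 in GMPs.

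*Bcl2l1* (chromosome 2, 152780668 to 152831728, minus strand) was highest in HSCs. Its O-WT libraries read 25.7, 19.2, 21.1 and 27.4 CPM in HSCs, 17.2, 15.9, 8.74 and 12 in CLPs and 11.8, 17.5, 12.2 and 12.3 in GMPs. In O-NR they read 24.5, 26.9, 27.3 and 25.9 CPM in HSCs, 12, 13.2, 17.1 and 31.5 in CLPs and 15.2, 13.9, 14.3 and 30.2 in GMPs. In O-WT all HSC libraries lay above all others, and in O-NR replicate 4 of CLPs and replicate 4 of GMPs lay above all 4 HSC libraries, while the other 6 lay below them. In O-WT the difference from HSCs was −0.75 ± 0.20 in log2 for CLPs (1.68-fold lower, adjusted p = 0.0044) and −0.83 ± 0.20 for GMPs (1.77-fold lower, adjusted p = 9.98e-04), of which the first was lost without CLP replicate 3 (adjusted p = 0.0544) and the second without a filter on low counts (adjusted p = 0.19). In O-NR the differences were −0.34 ± 0.25 (adjusted p = 0.296) and −0.37 ± 0.25 (adjusted p = 0.258). Without CLP O-NR replicate 4 the first became −0.83 (adjusted p = 0.00748), and without GMP O-NR replicate 4 the second became −0.72 (adjusted p = 0.0157). GMPs and CLPs differed by −0.08 ± 0.20 in O-WT, which passed at −0.58 with the total alone (adjusted p = 0.0146) and at −0.51 under upper quartile scaling (adjusted p = 0.0222), and by −0.04 ± 0.26 in O-NR, where the sign depended on the library left out (−0.38 to 0.31).

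*Bbc3* and *Pmaip1*, both targets of p53, were the scarcest of the genes and are given apart. Before scaling, *Pmaip1* exceeded 3 CPM in 1 of 4 HSC libraries and *Bbc3* in 1 of 4 GMP libraries of each treatment, so these genes reached the fits through the cell types in which they are high. That fixed the direction of the differences between those cell types, which are therefore given as a description, beside a test without any filter. *Bbc3* (chromosome 7, 16308393 to 16318205, plus strand) read 5.49, 5.2, 6.58 and 7.98 CPM in O-WT HSCs, 3.4, 2.35, 3.71 and 3.01 in CLPs and 2.75, 3.71, 4.2 and 1.79 in GMPs. In O-NR it read 6.11, 4.28, 8.67 and 3.63 CPM in HSCs, with ranges of 1.83 to 2.98 in CLPs and 2.18 to 3.81 in GMPs. HSCs lay above the other cell types in O-WT. CLPs differed from HSCs by −0.97 ± 0.35 in log2 in O-WT (adjusted p = 0.0352) and by −0.96 ± 0.37 in O-NR (adjusted p = 0.0388). Both calls depended on single libraries. Over every library whose removal ended a call, the adjusted p was 0.0567 to 0.131 in O-WT (HSC replicates 3 and 4, CLP replicates 1, 2 and 4) and 0.0583 to 0.199 in O-NR (HSC replicates 1 and 3, CLP replicates 1 and 2). Both were also lost under upper quartile scaling (adjusted p = 0.117 and 0.0844) and with the total alone (0.131 and 0.0542), and the O-NR call with the replicate number as a block (adjusted p = 0.0592). GMPs differed from HSCs by −1.06 ± 0.35 in O-WT and −0.88 ± 0.36 in O-NR, and without a filter by −0.76 ± 0.32 (adjusted p = 0.114) and −0.91 ± 0.36 (adjusted p = 0.0761), so neither passed there.

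*Pmaip1* read 1.01, 2.65, 2.03 and 1.99 CPM in O-WT HSCs, 3.61, 4.13, 6.49 and 5.29 in CLPs and 5.81, 5.92, 5.44 and 7.01 in GMPs. In O-NR it read 1.24, 3.98, 0.788 and 2.83 CPM in HSCs, 4.72, 2.61, 5.33 and 9.28 in CLPs and 4.36, 4.38, 3.33 and 3.86 in GMPs. HSCs lay below both other cell types in O-WT and overlapped them in O-NR. The log2 difference from HSCs was 1.40 ± 0.37 for CLPs and 1.62 ± 0.36 for GMPs in O-WT, and 1.52 ± 0.42 and 1.03 ± 0.42 in O-NR. Without a filter on low counts it was 1.33 ± 0.34 for CLPs (adjusted p = 0.0018) and 1.95 ± 0.34 for GMPs (adjusted p = 1.99e-07) in O-WT, and 1.27 ± 0.37 (adjusted p = 0.00661) and 1.01 ± 0.37 (adjusted p = 0.0448) in O-NR. With the filter, the adjusted p of the O-NR difference was 0.105 for CLPs without CLP replicate 4 and 0.0509 to 0.158 for GMPs without any 1 of their 8 libraries but HSC replicate 2, and 0.246 for GMPs under upper quartile scaling.

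**Figure D3:**
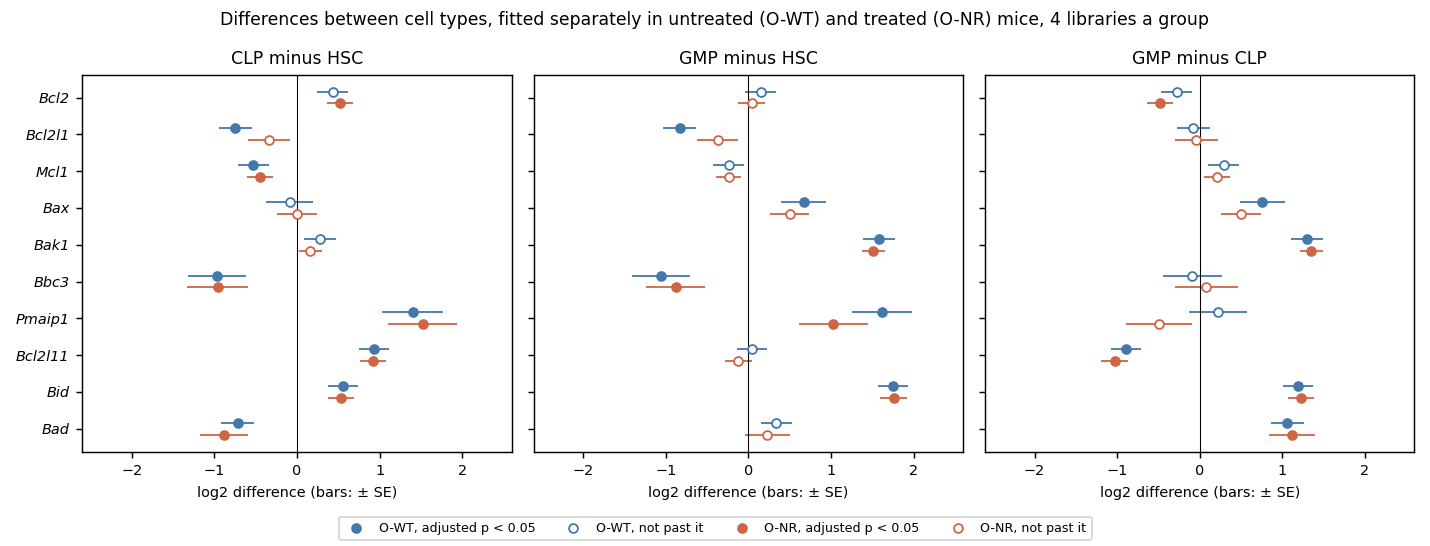
Log2 difference between cell types for each gene (x axis), fitted in O-WT (blue) and O-NR (red), 4 libraries a group, with bars for ± SE and filled points below an adjusted p of 0.05. *Bak1* and *Bid* lie to the right in both GMP panels, at 1.19 to 1.76, *Bcl2l11* lies to the right in CLPs against HSCs and to the left in GMPs against CLPs, and *Bcl2l1* is filled in O-WT only. *Pmaip1* in HSCs and *Bbc3* in GMPs were mostly below the CPM filter, so the differences of *Pmaip1* from HSCs and of *Bbc3* between GMPs and HSCs are a description.

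Genes that work beside these were read from 5 lists. Of 17 genes of the apoptosome and caspases, 9 were higher and 3 lower in GMPs than in HSCs in O-WT, with a median log2 difference of 0.58 against −0.40 for all genes tested, and in O-NR 8 were higher and 2 lower, with a median of 0.68 against −0.08. Of all genes 21% were higher and 25.7% lower in O-WT, and 25% and 20.8% in O-NR. *Cycs*, which encodes cytochrome c, rose from 21 CPM in O-WT HSCs to 110 in GMPs (log2 difference 2.36 ± 0.20, adjusted p = 9.15e-12), *Apaf1*, the scaffold of the apoptosome, from 35 to 107 CPM (1.57 ± 0.17, adjusted p = 2.91e-09) and *Aifm1*, a mitochondrial flavoprotein, from 33.9 to 81 CPM (1.22 ± 0.17, adjusted p = 4.83e-07). Like *Bak1* and *Bid*, these 3 genes had their highest level in GMPs. Between CLPs and HSCs in O-WT, 2 of the 17 were higher and 1 lower, with a median of −0.11, against 9.57% and 20.7% of all genes and a median of 0.04. In O-NR 6 were higher and 1 lower, with a median of 0.13, against 19.8% and 20.9% of all genes and a median of 0.11. *Cycs* and *Apaf1* were among the genes higher in CLPs than in HSCs in both treatments.

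Of 10 genes in the death receptor list, 7 were lower and none was higher in CLPs than in HSCs in O-WT (median −0.78). In O-NR 6 were lower (median −0.63). Of all genes 20.7% and 20.9% were lower, and the medians were 0.04 and 0.11. *Tnfrsf1a*, the main receptor of TNF, averaged 21.7 CPM in O-WT CLPs and 58.6 in HSCs (−1.38 ± 0.18, adjusted p = 1.85e-07). The list also holds *Casp4*, an inflammatory caspase and not a death receptor, at 6.87 and 40.3 CPM (−2.50 ± 0.21, adjusted p = 2.28e-11). In GMPs against HSCs of O-WT 1 of the 10 was higher and 2 were lower, against 21% and 25.7% of all genes. Of 18 regulators of the family, 1 was higher and 9 lower in CLPs than in HSCs of O-WT (all genes: 9.57% and 20.7%), and 5 were higher and 7 lower in GMPs than in HSCs (all genes: 21% and 25.7%). The kinase gene *Pim2*, whose product phosphorylates Bad, averaged 46.1 CPM in O-WT HSCs, 6.09 in CLPs and 3.31 in GMPs (−2.87 ± 0.23 and −3.83 ± 0.24 against HSCs). *Vdac2*, which encodes a channel of the outer mitochondrial membrane that binds Bak, averaged 63.4 CPM in O-WT HSCs and 161 in GMPs (1.31 ± 0.17, adjusted p = 1.69e-07).

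Of 13 p53 genes and targets that were tested, 3 were higher and 4 lower in O-WT CLPs than in HSCs, and the counts were also 3 and 4 in GMPs against HSCs, beside the same shares of all genes (9.57% and 20.7% for CLPs, 21% and 25.7% for GMPs). *Cdkn1a*, the cell cycle inhibitor p21, averaged 5.2 CPM in O-WT HSCs, 29.6 in CLPs and 6.93 in GMPs, while by mean *Bbc3* was highest and *Pmaip1* lowest in O-WT HSCs. Of 14 further members of the Bcl2 family, 10 were tested in O-WT, and 2 were higher and 3 lower in CLPs than in HSCs, where 9.57% and 20.7% of all genes were. *Bnip3l*, a mitophagy receptor, averaged 37.6 CPM in O-WT CLPs and 82 in HSCs (−1.08 ± 0.17, adjusted p = 3.46e-06), and *Bcl2l2*, which encodes the survival protein Bcl-w, 9.34 and 18.4 CPM (−0.93 ± 0.21, adjusted p = 6.99e-04). In GMPs against HSCs 2 of the 10 were higher and 2 lower, where 21% and 25.7% of all genes were. *Bmf*, a BH3-only gene, averaged 2.5 CPM in O-WT GMPs and 5.6 in HSCs (−1.19 ± 0.35, adjusted p = 0.0055).

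The effect of NR was tested by comparing O-NR with O-WT within each cell type, with an unadjusted p below 0.01 as the threshold, no limit on the fold, and the count after adjustment beside it. None of the genes passed it in HSCs, CLPs or GMPs of cohort 2, where 0.726%, 0.412% and 0.986% of all genes did. *Pmaip1* in HSCs and *Bbc3* in GMPs did not pass the CPM filter and were not tested. At an unadjusted p below 0.05, edgeR gave none in HSCs or CLPs and 2 in GMPs, *Bcl2l1* and *Pmaip1*, and DESeq2 gave the same 2, with none below 0.01 in either tool. After adjustment, 0 of the members and 0% of all genes passed 0.05 in each of the 3 cell types.

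In HSCs the log2 differences ran from −0.21 ± 0.31 for *Bbc3* to 0.26 ± 0.16 for *Bcl2l11*, with a median of 0.07 against −0.02 for all genes tested. *Bak1* came nearest to the threshold. Its mean of 27 ± 3.13 CPM (SD, n = 4) in O-WT and 32.3 ± 2.09 in O-NR gave a difference of 0.22 ± 0.11 (1.16-fold, unadjusted p = 0.0593 in edgeR, adjusted p = 0.995), and O-WT replicate 1 (30.8 CPM) exceeded O-NR replicate 2 (29.9 CPM). *Mcl1*, at 150 ± 27.3 and 148 ± 22.7 CPM, differed by −0.06 ± 0.13, and *Bcl2*, at 85.1 ± 13.1 and 100 ± 10.7 CPM, by 0.18 ± 0.11. In CLPs the differences ran from −0.27 ± 0.48 for *Bbc3* to 0.42 ± 0.27 for *Bcl2l1* (1.34-fold), the latter with 1 of 4 O-NR libraries above all O-WT libraries.

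In GMPs *Bcl2l1* had the larger difference upward, 0.51 ± 0.22 (1.42-fold, unadjusted p = 0.0377 in edgeR, adjusted p = 0.997). Its O-NR replicate 4, at 30.2 CPM, stood far above the other 3 (13.9 to 15.2), which overlapped O-WT (11.8 to 17.5). *Pmaip1* had the larger difference downward, −0.57 ± 0.23 (1.49-fold, unadjusted p = 0.0286 in edgeR, adjusted p = 0.997). All 4 O-NR libraries of *Pmaip1* (3.33 to 4.38 CPM, 41 to 55 reads) lay below all 4 O-WT libraries (5.44 to 7.01 CPM, 66 to 86 reads). It was the only one of the genes whose groups did not overlap in any NR comparison of cohort 2, while 2.14%, 2.4% and 1.42% of all genes did not overlap in HSCs, CLPs and GMPs. The difference between the NR effect in GMPs and that in HSCs was −0.78 ± 0.56 for *Pmaip1* (unadjusted p = 0.168 in edgeR, adjusted p = 1), and 0.29 ± 0.34 for *Bcl2l1* (unadjusted p = 0.397). No member passed an unadjusted p of 0.01 or 0.05 in edgeR or DESeq2 for a difference of the NR effect between cell types, where 0.421% (CLPs and HSCs), 0.133% (GMPs and HSCs) and 0.439% (GMPs and CLPs) of all genes were below 0.01 and 0.00443%, 0.00443% and 0% passed after adjustment.

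**Figure D4:**
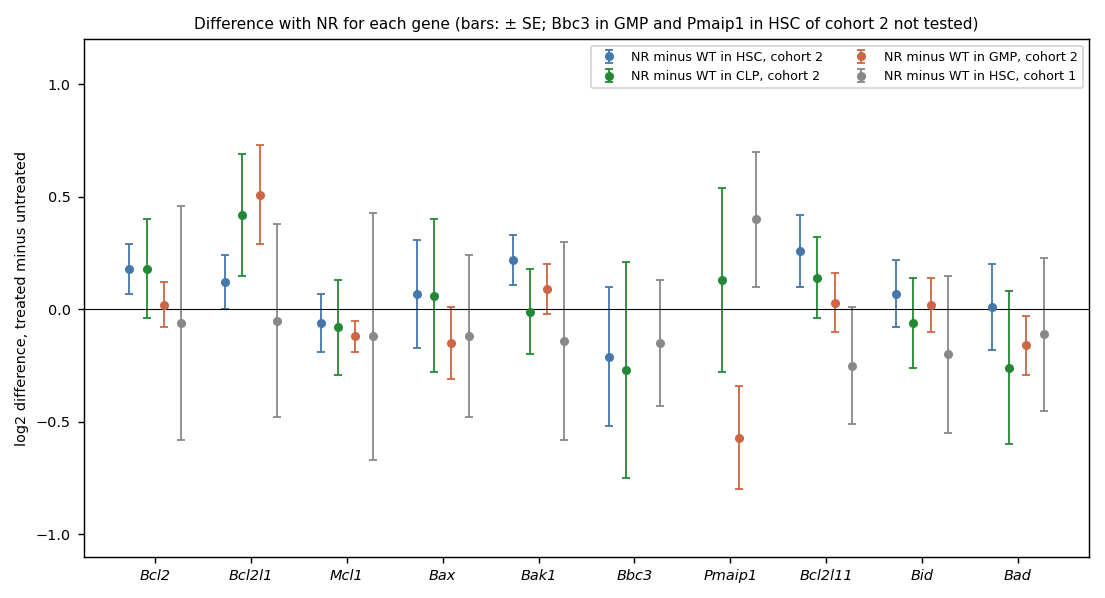
Log2 difference, O-NR minus O-WT, for each gene in HSCs, CLPs and GMPs of cohort 2 and HSCs of cohort 1, with bars for ± SE. Points lie between −0.57 (*Pmaip1* in GMPs) and 0.51 (*Bcl2l1* in GMPs), and the bars of cohort 1 are the widest for most genes.

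In HSCs of cohort 2, 2 genes of the further lists had an unadjusted p below 0.01 for NR, where 0.726% of all genes did. These were *Pim2*, of 18 regulators, and *Birc3*, of 17 genes of the apoptosome and caspases. In HSCs of cohort 1 the smallest unadjusted p in edgeR was 0.3 among the regulators and 0.234 among the apoptosome and caspase genes. Over both cohorts it was 0.0775 and 0.195. *Pim2* read 33.9 to 51.2 CPM in O-WT HSCs and 22.6 to 33.5 in O-NR HSCs without overlap (−0.71 ± 0.14, unadjusted p = 1.24e-04, adjusted p = 0.358 in edgeR). Markers of B and plasma cells summed to 66.4 to 732 CPM (median 195) in the O-WT and to 24.9 to 128 (median 47.6) in the O-NR HSC libraries, and their part in this difference was not tested. *Birc3*, an inhibitor of apoptosis, read 40.1 to 53.5 and 35.2 to 41.8 CPM (−0.30 ± 0.10, unadjusted p = 0.00817, adjusted p = 0.995). Neither passed the correction over all genes. No gene of the p53, death receptor or further Bcl2 family lists had an unadjusted p below 0.01 for NR in any cell type of cohort 2.

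In HSCs of cohort 1, most of the genes separated with the receptor background of the libraries, across treatments. In 4 libraries (O-NR replicates 1 and 2, NR-RC replicates 2 and 3) the receptor genes gave 1.83 to 1.94 CPM per kb, and in the other 5 they gave 1.11 to 1.56. *Mcl1* read 126 and 113 CPM in O-WT, 67.2, 62.6, 152 and 156 in O-NR and 187, 64.9 and 64.1 in NR-RC. *Bcl2* read 95 and 68.5 CPM in O-WT, 55, 47.3, 105 and 106 in O-NR and 132, 41.3 and 47.8 in NR-RC. *Bak1* read 18.3 and 18.2 CPM in O-WT, 11.2, 11.2, 21.2 and 22.8 in O-NR and 28.6, 8.81 and 10.3 in NR-RC. Each of these genes was thus low in the 4 libraries with more receptor reads and high in the other 5, with the treated groups split between the 2 sets. The same separation without overlap held for *Bcl2l1* (15.2 to 18.1 against 26.4 to 45.1 CPM), *Bax* (4.73 to 6.78 against 8.96 to 11.9), *Bbc3* (4.58 to 6.54 against 7.82 to 9.56), *Bid* (11.7 to 13.7 against 16 to 26.5) and *Bad* (11.5 to 12 against 16.2 to 23.2). *Bcl2l11* (23.8 to 28.5 against 26.3 to 37.2 CPM) and *Pmaip1* (5 to 7.57 against 3.25 to 6.31) overlapped. The summed HSC markers were lower in the 4 libraries as well, 826 to 945 CPM against 1624 to 2444. TMM factors of the 4 libraries were 1.24 to 1.33, against 0.666 to 0.967 in the other 5, so these libraries differed as a whole. The share of all genes that separated alike is not given, so the separation is no result about these genes. The part of these library differences in the values was not tested.

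**Figure D5:**
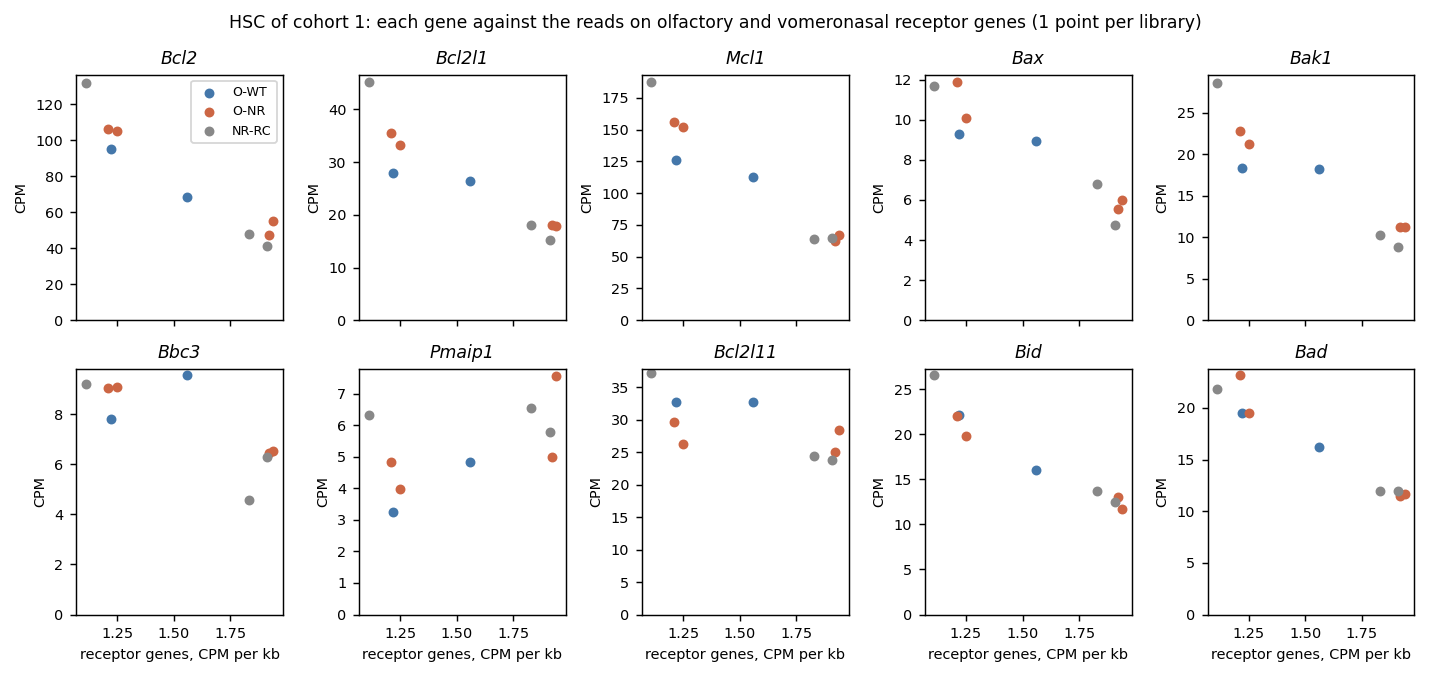
CPM of each gene against CPM per kb of the olfactory and vomeronasal receptor genes in the 9 HSC libraries of cohort 1, 1 point per library, colored by O-WT, O-NR and NR-RC. In 8 of the 10 panels the 4 libraries at 1.83 to 1.94 lie below the other 5, and O-NR and NR-RC libraries are found on both sides.

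No member passed an unadjusted p of 0.01 in edgeR or DESeq2 in cohort 1 for O-NR against O-WT, for NR-RC against O-NR or for NR-RC against O-WT, where 0.048%, 0.036% and 0.078% of all genes did. After adjustment, 0% of all genes passed 0.05 in each of the 3 comparisons. So few genes of any kind passed in cohort 1 that the absence of the members says little about them. At an unadjusted p below 0.05, edgeR gave none of the 10 in these comparisons, and DESeq2 gave *Pmaip1* alone, for NR-RC against O-WT. The differences between O-NR and O-WT ran from −0.25 ± 0.26 (*Bcl2l11*) to 0.40 ± 0.30 (*Pmaip1*), and the standard errors reached 0.55 (*Mcl1*), against 0.13 for *Mcl1* in HSCs of cohort 2. *Bcl2l11* was the only gene without overlap for O-NR against O-WT, at 25.1 to 29.6 CPM against 32.7 and 32.7, where 5.84% of all genes did not overlap. *Pmaip1* was the only one for NR-RC against O-WT, at 5.79 to 6.53 CPM against 3.25 and 4.82 (0.63 ± 0.31, unadjusted p = 0.0638 in edgeR), where 8.1% of all genes did not. For NR-RC against O-NR all 10 overlapped, where 1.22% of all genes did not. In these libraries *Pmaip1* lay between 1.19 and 2.77 CPM per kb, close to the receptor genes at 1.11 to 1.94. The O-NR against O-WT and the NR-RC against O-WT comparisons share the same 2 O-WT libraries.

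Leaving out the 4 libraries with more receptor reads, an alternative chosen after the data were seen, left 1 NR-RC library against 2 O-WT libraries, and the lone library was assumed to vary like the others. The genes that stood out in this fit were *Bcl2*, *Bcl2l1*, *Mcl1* and *Bak1*, with log2 differences of 0.61, 0.65, 0.57 and 0.57. These values rest on 1 NR-RC library, and with all libraries the same differences were −0.15, −0.05, −0.18 and −0.19. Over both cohorts, with cohort as a term, the differences in HSCs ran from −0.14 ± 0.21 (*Bbc3*) to 0.27 ± 0.30 (*Pmaip1*), and none passed (0.0886% of all genes did, and 0% after adjustment). The difference of the NR effect between the cohorts was nearest to the threshold for *Bcl2l11*, at −0.61 ± 0.30 (unadjusted p = 0.0532 in edgeR), where 0.228% of all genes were below 0.01 and 0% passed after adjustment.

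The genes whose log2 CPM varied most like each member over the 24 libraries of cohort 2 are given as a description, since the libraries share 3 cell types. *Bak1* was most like *Pphln1* and *Cluh* (Pearson's r 0.99 for both, 24 libraries, 22573 genes compared), *Bid* like *Rnpep* and *Nup50* (0.98), *Mcl1* like *Rps24* (0.96) and *Ythdc1* (0.95), and *Bcl2l11* like *Pde3b* (0.94) and *Gphn* (0.92). *Bax* was most like *Ppp4r2* and *Ccdc43* (0.94) and *Bad* like *Pofut2* (0.91) and *Zfp276* (0.90). The likeness was weaker for *Bbc3* (*Ago3*, 0.88), *Pmaip1* (*Cyp4f18*, 0.86), *Bcl2* (*Mef2d*, 0.85) and *Bcl2l1* (*Gbp7*, 0.81).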

How the data were processed

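Reads were trimmed (trim galore 0.4.3 and cutadapt, per the submitters' processing notes). The authors aligned them to mm10 with STAR and Gencode M22 features and counted them with featureCounts, and the deposited counts are whole numbers without normalization for 33 libraries. The strand setting and the treatment of reads with several positions are not given in the sources used here, so overlapping genes are uncertain. The library kit was stranded.

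Counts were analysed with R 4.3.3 and edgeR 4.0.16: TMM scaling, genes above 3 CPM in a number of libraries no smaller than the smallest group of a fit, and the quasi-likelihood test with Benjamini-Hochberg adjustment over all genes tested. Each fit was scaled over its own libraries, while printed CPM were scaled over a whole cohort, so small differences can depart from the ratio of printed means. The fits were tested on simulated data. The limit on the fold change in the study's methods was not applied. Cell types were compared within each treatment (12 libraries), NR within each cell type (8) and cohort 1 as 1 set (9). DESeq2 1.42.0, other scalings and filters, 1 RUVr factor, a replicate block and leaving out each library were the alternatives.

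Cell type libraries with the same number carry shared identifiers in their labels, and the block on that number rests on these identifiers. All 4 same-number pairs correlated above 0.1 only for CLPs and HSCs of O-WT (mean 0.299), and the other mean correlations were −0.186 to 0.154. O-WT and O-NR libraries share only a number.

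Exon lengths and positions are of Gencode M21 (GRCm38), in which 54510 of 55376 symbols were found. Receptor background is the CPM per kb of 1964 olfactory and vomeronasal receptor genes. Every member is named. From each further list, up to 3 genes with the smallest p per comparison were eligible to be named, and the 2 genes most correlated with each member. The members and lists were chosen with earlier results of these data known. Sequences are from RefSeq, and the one of Pmaip1 is not reported here.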

Additional observations from a re-analysis of the deposited data

Results flagged for a closer look

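In groups of 4 libraries, 4 of 70 sets of values had 1 library farther from the rest than Dixon's 95% limit (0.829 of the range). Chance gives about 1 in 20. The distances were taken on a log scale, with 0.5 added to each CPM. *Bcl2l1* in GMP O-WT replicate 2 was 17.5 CPM, against 11.8 to 12.3 in the other 3. *Bcl2l1* in GMP O-NR replicate 4 was 30.2 CPM, against 13.9 to 15.2. In the same library the markers of B and plasma cells summed to 134 CPM, against 51.6 to 54.4 in the other 3, and their part in the value was not tested. *Bad* in CLP O-NR replicate 4 was 2.53 CPM (24 reads), against 9.03 to 10.7 in the other 3. *Bbc3* in CLP O-NR replicate 2 was 1.83 CPM, against 2.87 to 2.98.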

How the results depend on the processing

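Each of the 60 differences between cell types (10 genes, 3 pairs, 2 treatments) was recomputed under 8 other scalings, filters, tools and models and with each of 8 libraries left out. Of the 272 recomputed values of differences that were called, 240 kept the call under other processing and 32 lost it, and 230 kept it with a library left out and 42 lost it, and none of these turned. Of the 208 recomputed values of differences that were not called, 20 gained a call under other processing and 36 turned in sign, and 8 gained one and 20 turned with a library left out. *Bcl2* in GMPs against CLPs of O-WT was 0.07 without a filter (adjusted p = 0.91) in place of −0.28. Calls gained and not given above were those of *Bak1* in CLPs against HSCs of O-WT under upper quartile scaling (0.51, adjusted p = 0.00539), with the total alone (0.46, adjusted p = 0.00388) and without CLP replicate 3 (0.52, adjusted p = 0.0355), of *Bcl2l11* in GMPs against HSCs of O-NR under upper quartile scaling (−0.36, adjusted p = 0.0361) and with the total alone (−0.43, adjusted p = 0.0154), of *Bcl2* in CLPs against HSCs of O-WT with the total alone (0.61, adjusted p = 4.16e-04) and of *Bcl2l1* in CLPs against HSCs of O-NR without a filter (−0.58, adjusted p = 0.0322). With a library left out, the number called of all 10 members ran from 5 to 7, 5 to 7 and 4 to 5 in O-WT (CLPs against HSCs, GMPs against HSCs, GMPs against CLPs) and from 4 to 7, 2 to 5 and 4 to 6 in O-NR, and stayed at 0 to 0 in the NR comparisons. These counts and the tallies above include *Bbc3* and *Pmaip1*. The shares of all genes called in the same fits are not given, so the counts describe only how stable the calls were. The calls of *Bak1* and *Bid* in GMPs, against HSCs and against CLPs, held in both treatments under all of these alternatives.

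For NR, 1 member passed an unadjusted p of 0.01 in GMPs without a filter (*Bcl2l1*, 0.47, unadjusted p = 0.00478 in edgeR) and 1 with an RUVr factor (*Pmaip1*, −0.56, unadjusted p = 0.00898 in edgeR). For NR-RC against O-WT, 2 passed with an RUVr factor, also after adjustment (2: *Bcl2*, −0.30, adjusted p = 0.0418, and *Mcl1*, −0.34, adjusted p = 0.0219). For the difference between cohorts, 1 passed with an RUVr factor (*Bcl2l11*, −0.61) and 4 with the replicate block, also after adjustment (4: *Bcl2*, −0.98, *Bcl2l1*, −0.85, *Mcl1*, −0.94, *Bak1*, −1.05, adjusted p = 0.0105 to 0.0323). The numbers pair no libraries there, and the cause was not tested. Shares of all genes that passed under these settings are not given, so these counts are no result about the members. With the replicate number as a block the *Bbc3* calls of O-NR were lost, and no other call of a cell type comparison changed. The removal of libraries of high receptor background was chosen after the data were seen, and so was a block on treatment and replicate number together, run only for differences of the NR effect between cell types, in which no member passed.

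Other scalings moved the median of all genes: for GMPs against CLPs in O-WT it was −0.32 with TMM, −0.13 with RLE, −0.74 with upper quartile scaling and −0.83 with the total alone. For GMPs against CLPs in O-WT, 5457 of 12450 called genes were higher with TMM and 2830 of 13690 with the total alone, and for CLPs against HSCs in O-WT 1918 of 6071 with TMM and 3187 of 6226 with upper quartile scaling. The lowest number of reads in a library of cohort 2 was 10 for *Pmaip1*, 21 for *Bbc3*, 24 for *Bad* and 28 for *Bax*, which limits their precision.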
